A study of Mus musculus with 8 samples.

Results

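The cell-surface receptors described here are 10 G protein coupled receptors that modulate insulin secretion in the islet: Glp1r, Gipr, Gcgr, Gpr119, Ffar1, Chrm3, Adra2a, Sstr3, Sstr5 and Galr1. The members were listed by name and found through the RefSeq accession printed for each probe in the scanner output, which gave 13 of 56605 probes and 10 of the 22911 genes that could be named. Chrm3, Sstr5 and Galr1 have 2 probes each, called a (the brighter) and b, and the other 7 genes have 1. The measured tissue was islets of 11-week-old mice. Each RNA extraction took 150 islets and was hybridised to 1 Agilent one-colour mouse array. The extractions are labelled as biological replicates, but whether islets of several mice were joined in one is not given, so the p-values measure the spread between extractions. The control group was 4 extractions from Fbln5-floxed mice, in which the gene for the matricellular protein Fibulin-5 carries loxP sites. The βFbln5KO group was 4 extractions from floxed mice that also carried an Ins1-Cre transgene, in which the insulin 1 gene's promoter drives Cre in β-cells, and all animals were male littermates per the methods. Thus both groups share the floxed allele, the other islet cells of βFbln5KO mice keep Fbln5, and an effect of the Cre transgene and one of the deletion cannot be told apart.

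Receptors of this class sense hormones, nutrients and transmitters outside the cell and act through G proteins inside it. In β-cells, receptors that couple to Gs raise cyclic AMP, which strengthens glucose-stimulated insulin secretion through protein kinase A and Epac2, and receptors that couple to Gq activate phospholipase C and release calcium from stores. Receptors that couple to Gi lower cyclic AMP, open potassium channels and restrain secretion. The paper reports that the insulin response to a GLP-1 receptor agonist did not differ significantly between βFbln5KO and control islets. In wild-type islets, an activator of adenylyl cyclase raised Fbln5 mRNA. The arrays allow the question whether the transcripts of such receptors differed between βFbln5KO and control islets.

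No receptor passed the test for a difference between the genotypes. Of the 13 probes, 0 passed an adjusted p of 0.05 in limma, a threshold that 0.0106% of all probes and 0.00752% of the 26612 probes that the scanner software called well above background on each of the 8 arrays passed. At an unadjusted limma p under 0.05, 0 of the 13 receptor probes were called, whereas 24.7% of all probes were (20.7% higher and 3.97% lower in βFbln5KO islets). Among those bright probes 6.28% were called, 0.853% higher and 5.42% lower. The smallest unadjusted limma p was 0.127 (Glp1r). In none of the 13 did the groups separate without overlap, as 4.14% of the bright probes and 21.9% of all probes did. Levels are given as log2 of the processed signal minus the array's 75th percentile of it, so that 0 is the signal of a spot at that percentile, and the receptors were not ordered by level, since signals of different probes are not on a common scale. Over the 10 genes, each by its brighter probe, the median difference (βFbln5KO minus control) was 0.031 on the log2 scale, with 7 genes above 0 and 3 below, against a median of 0.024 over all 22911 genes and −0.0082 over the 13650 genes whose brightest probe was bright on every array. Below, a gene or probe is called bright where the scanner software marked it well above background on all 8 arrays. By brightest probe, 0 of the 10 receptor genes passed the adjusted threshold, as did 0.0131% of all 22911 genes and 0.0147% of the 13650 bright ones. A p that misses the threshold does not show equal levels, and the 95% confidence intervals from limma tell how large a difference the 4 arrays per group still allow. These intervals lay within a 2-fold change in either direction for 12 of the 13 probes and within a 1.5-fold change for 9.

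**Figure D1:**
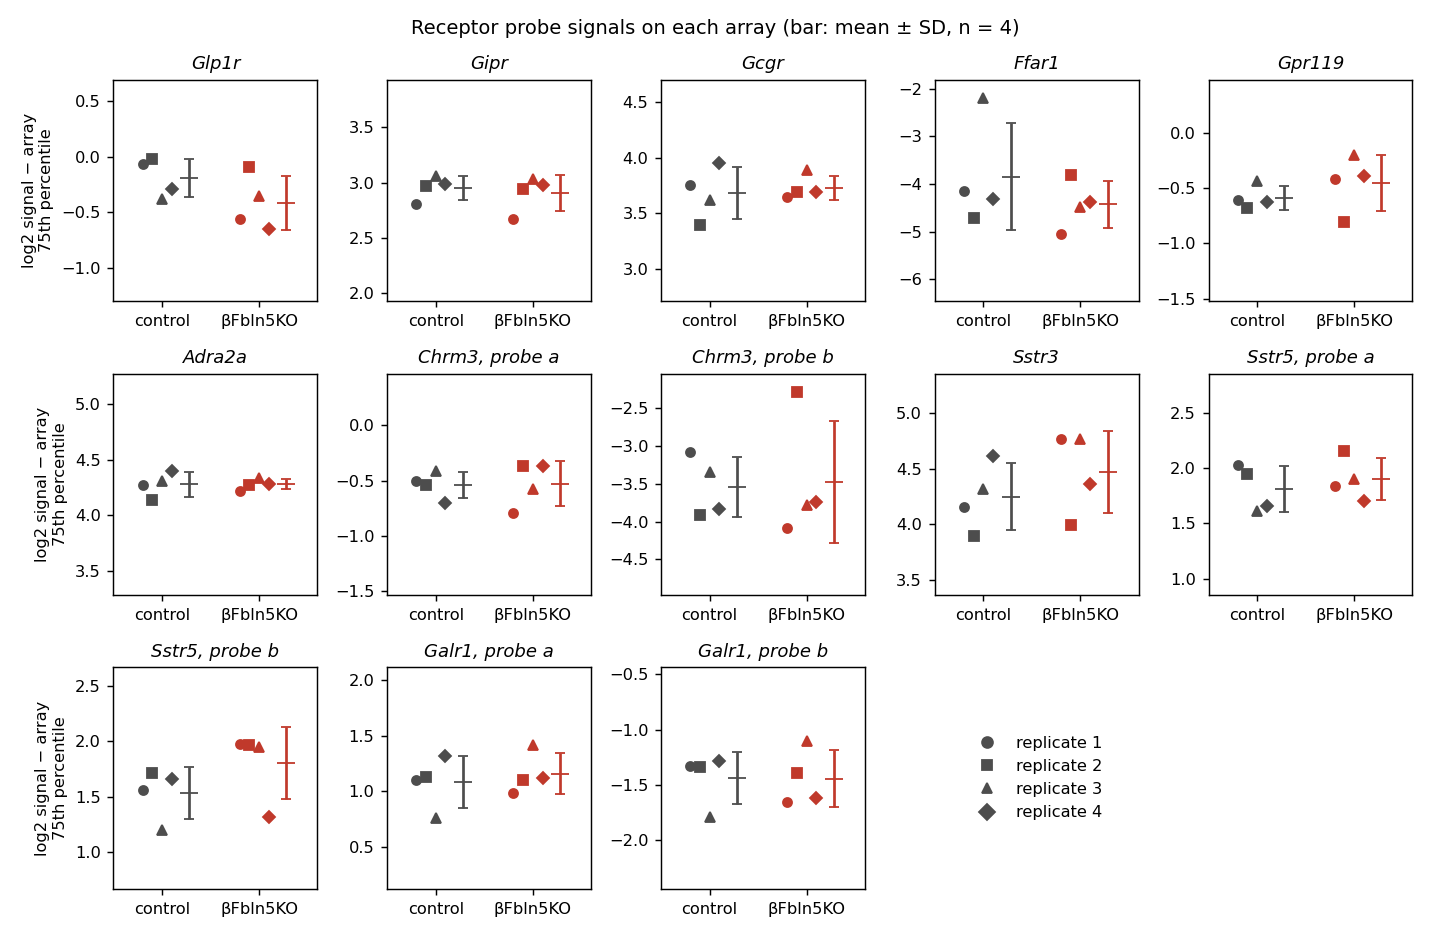
Log2 signal of the 13 receptor probes on each array (vertical axes, log2 processed signal minus the array's 75th percentile, a separate range in each panel), with control in grey, βFbln5KO in red, 1 symbol per replicate number and bars for the mean ± SD (n = 4). The groups overlap in every panel; Ffar1 and probe b of Chrm3 spread most, and Adra2a least.

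Before the receptors, the deleted gene and the tissue were examined. The log2 signal of Fbln5 was −1.70, −1.32, −2.05 and −1.83 on the control arrays and −2.74, −2.40, −2.38 and −1.37 on the arrays labelled βFbln5KO. On 3 of those 4 arrays it lay below every control array, and on replicate 4 it lay within the control range (difference −0.50, SE 0.29, adjusted p = 0.342 in limma). The floxed allele removes the first exons, and where the Fbln5 probe lies relative to them is not given in the sources used here, so its signal may not report the deletion. By PCR the paper reports significantly lower Fbln5 mRNA in βFbln5KO islets, and by immunoblot less of the protein. The array labelled βFbln5KO replicate 4 is left out below wherever that moved a receptor's call. All 9 β-cell markers, 7 α-cell markers and 3 δ-cell markers were bright. The summed level of the β-cell markers spanned 10.2 to 10.5 over the control arrays and 10.2 to 10.3 over the βFbln5KO arrays, in log2 units. All 10 acinar markers were bright too, and their summed level spanned 10.1 to 11.6 over the control arrays and 9.38 to 10.9 over the βFbln5KO arrays (exact two-sided permutation test, p = 0.143; the smallest p that 4 against 4 arrays allow is 0.0286). The summed levels of the other 9 lists, for β, α, δ, PP, ductal, endothelial, macrophage, mesenchymal and nerve cells, gave exact permutation p-values from 0.114 to 1. At an unadjusted limma p of 0.05, 1 of 7 α-cell, 1 of 10 acinar and 1 of 6 macrophage markers had a lower signal. Of the 13650 bright genes 3.08% did, and 0 markers passed an adjusted p. The median difference of the acinar markers was −1.03. In RNA from whole islets, fewer cells of a type and less RNA per cell cannot be told apart. Each genotype lay in 1 of the 2 rows of arrays on the slide, so that an effect of the slide row cannot be told apart from one of the genotype.

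Among the receptors that couple to Gs, Glp1r, Gipr, Gcgr and Gpr119, the median difference was −0.00047, and 2 genes lay above 0 and 2 below. Glp1r encodes the receptor for GLP-1, the incretin hormone whose analogues are used to treat diabetes. On the control arrays its log2 signal was −0.066, −0.023, −0.38 and −0.29 (replicates 1 to 4), and on the βFbln5KO arrays it was −0.56, −0.095, −0.36 and −0.65. The βFbln5KO arrays 1 and 4 lay below all control arrays, and the other two lay within the control range. The difference of −0.23 (SE 0.13, 95% confidence interval −0.53 to 0.078) had an adjusted p of 0.364 in limma, and the interval spans a signal from 0.693 to 1.06 times that of control islets. Without βFbln5KO replicate 2, whose signal was the highest of its group, the difference was −0.33 with an unadjusted limma p of 0.0207 (adjusted p = 0.171), in a fit where 6.53% of the bright probes passed the same threshold. Without βFbln5KO replicate 4 it was −0.15, and with the normexp background correction −0.14.

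Gipr encodes the receptor for GIP, the other incretin. Its log2 signal was 2.80, 2.96, 3.05 and 2.99 in control and 2.67, 2.94, 3.03 and 2.97 in βFbln5KO islets. Apart from βFbln5KO replicate 1, the lowest of the 8 arrays, every βFbln5KO array lay within the control range. The difference was −0.051 (SE 0.088, 95% confidence interval −0.25 to 0.15, adjusted p = 0.81 in limma). Gcgr encodes the glucagon receptor, through which glucagon from α-cells also acts on β-cells. The control arrays gave 3.75, 3.39, 3.62 and 3.95, and the βFbln5KO arrays gave 3.65, 3.69, 3.89 and 3.69. All 4 βFbln5KO values lay inside the control range. The difference was 0.050 (SE 0.11, 95% confidence interval −0.21 to 0.31, adjusted p = 0.861 in limma).

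Gpr119 encodes a receptor for lipid amides such as oleoylethanolamide. In control islets its log2 signal was −0.61, −0.68, −0.44 and −0.63, a narrow range, and in βFbln5KO islets it was −0.42, −0.81, −0.20 and −0.39. The βFbln5KO arrays flanked the control group on both sides, with 3 above it and replicate 2 below it. The difference was 0.14 (SE 0.12, 95% confidence interval −0.15 to 0.42, adjusted p = 0.599 in limma). Leaving out βFbln5KO replicate 2 raised it to 0.25, with an unadjusted limma p of 0.0218 and an adjusted p of 0.171, whereas leaving out βFbln5KO replicate 3 lowered it to 0.050 (adjusted p = 0.873 in limma). βFbln5KO replicate 2 was thus the highest of its group for Glp1r and the lowest for Gpr119.

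**Figure D2:**
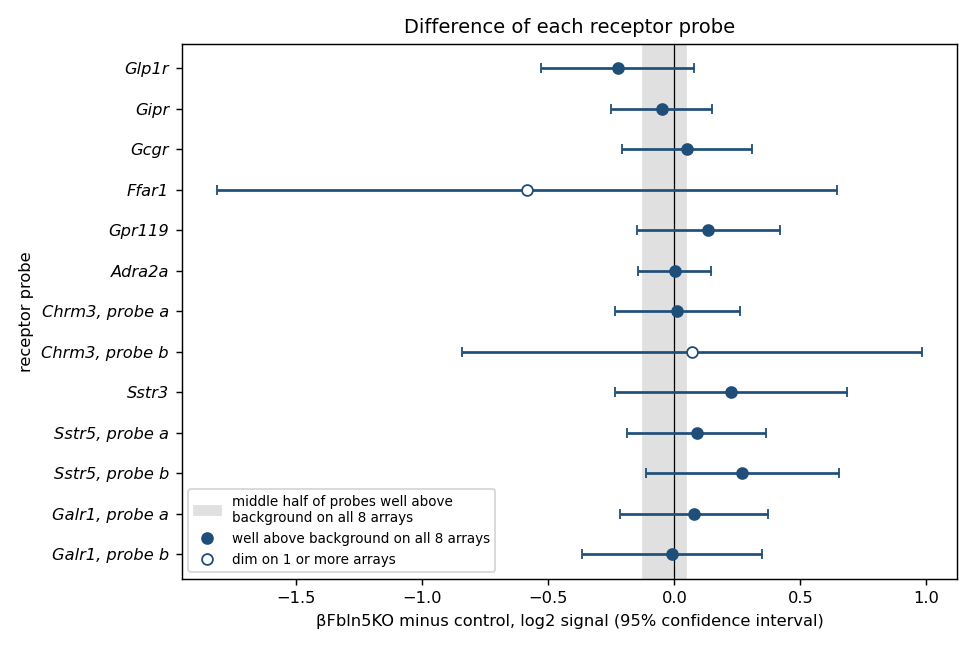
Difference of each receptor probe, βFbln5KO minus control (horizontal axis, log2 signal; points with 95% confidence intervals from limma, n = 4 arrays per group). All 13 intervals hold 0; the grey band spans the middle 50% of the differences of the 26612 bright probes (−0.12 to 0.047), and open points mark Ffar1 and probe b of Chrm3, which were dim on 1 or more arrays.

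Of the receptors that couple to Gq, Ffar1 was measured with the least precision of all 10 genes, and Chrm3 did not pass the test by either probe. Ffar1 encodes the receptor for long-chain fatty acids, known as GPR40. Its probe was dim: it was well above background on 3 control and 2 βFbln5KO arrays, with a processed signal between 32.1 and 155. The log2 signal was −4.14, −4.71, −2.20 and −4.32 in control and −5.04, −3.81, −4.48 and −4.38 in βFbln5KO islets. Control replicate 3 lay far above the other 7 arrays, which overlapped. With it the difference was −0.58 (SE 0.54, 95% confidence interval −1.81 to 0.65, adjusted p = 0.602 in limma), and without it the difference was −0.036. With all arrays the interval thus extends past a 2-fold fall of Ffar1 but does not reach a 2-fold rise, and the probe was dim. On control replicate 3 the summed acinar markers were also the highest of the 8 arrays, at 11.6, and the part of these cells in the Ffar1 signal was not tested.

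Chrm3 encodes the M3 muscarinic receptor, which carries the effect of acetylcholine on insulin secretion. Probe a gave −0.50, −0.54, −0.42 and −0.70 in control and −0.79, −0.37, −0.58 and −0.37 in βFbln5KO islets. The βFbln5KO arrays lay on both sides of the control range, with 2 above it and 1 below. Their means differed by 0.012 (SE 0.11, 95% confidence interval −0.24 to 0.26, adjusted p = 0.969 in limma). Probe b was near the limit of detection and well above background on 7 of the 8 arrays. It gave −3.08, −3.91, −3.34 and −3.83 on the control arrays and −4.08, −2.28, −3.77 and −3.74 on the βFbln5KO arrays, which overlapped. Its difference was 0.071, with an interval from −0.84 to 0.98, which is too wide to add to the result of probe a. The difference turned below 0 with normexp (−0.035) and without βFbln5KO replicate 2 (−0.33) or control replicate 2 (−0.052) or 4 (−0.026). Both probes were lowest on βFbln5KO replicate 1.

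The receptors that couple to Gi, Adra2a, Sstr3, Sstr5 and Galr1, all had differences above 0 by the brighter probe, from 0.0013 to 0.23 with a median of 0.083, and 0 of the 4 reached an unadjusted limma p under 0.05. That shared direction is not stable: Adra2a turned below 0 with the normexp correction (−0.011) and without control replicate 1 (−0.00029) or 2 (−0.047) or βFbln5KO replicate 3 (−0.018) or 4 (−0.00035). Probe b of Galr1 lay just below 0 with all arrays (−0.0081) and ranged from −0.13 to 0.064 with 1 array left out. By probe a, Galr1 turned without control replicate 3 (−0.029) or βFbln5KO replicate 3 (−0.0095). Adra2a encodes the α2A-adrenergic receptor, by which noradrenaline and adrenaline inhibit secretion. Its log2 signal was 4.27, 4.13, 4.31 and 4.40 in control and 4.22, 4.27, 4.34 and 4.28 in βFbln5KO islets. All βFbln5KO arrays lay within the control range, and the means were 4.28 ± 0.11 (SD, n = 4) and 4.28 ± 0.047 (SD, n = 4). The 95% confidence interval of the difference, −0.14 to 0.15, was the narrowest of the 13 probes and allows a signal of 0.905 to 1.11 times that of control islets.

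Sstr3 and Sstr5 encode receptors for somatostatin, the hormone of δ-cells that restrains insulin and glucagon release. For Sstr3, control islets gave 4.15, 3.90, 4.32 and 4.62, and βFbln5KO islets gave 4.77, 4.00, 4.77 and 4.36. The βFbln5KO arrays 1 and 3 exceeded all control arrays, and the other two lay within the control range. The difference was 0.23 (SE 0.20, 95% confidence interval −0.23 to 0.69, adjusted p = 0.586 in limma). The Sstr3 probe lies in spot row 7 of 384, and the lowest and highest differences with 1 array left out were 0.11 and 0.38.

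The probes of Sstr5 gave different sizes. By probe a, the log2 signal was 2.03, 1.94, 1.61 and 1.65 in control and 1.84, 2.15, 1.90 and 1.70 in βFbln5KO islets, with 3 of 4 βFbln5KO arrays inside the control range. By probe b, it was 1.56, 1.72, 1.20 and 1.66 in control and 1.98, 1.97, 1.95 and 1.32 in βFbln5KO islets. On probe b, βFbln5KO replicates 1 to 3 lay above every control array and close together, whereas replicate 4 lay near the lowest control array. The difference was 0.088 (SE 0.12, adjusted p = 0.75 in limma) by probe a and 0.27 (SE 0.17, 95% confidence interval −0.11 to 0.65, adjusted p = 0.392 in limma) by probe b. βFbln5KO replicate 4, on which Fbln5 lay within the control range, was thus the array apart from its group on probe b. Without it, probe b differed by 0.43 (unadjusted p = 0.00816, adjusted p = 0.0410 in limma). No other receptor probe passed the adjusted threshold in any alternative examined, and probe a differed by 0.15 in the same fit (adjusted p = 0.556 in limma). In that fit, without βFbln5KO replicate 4, 11544 probes passed the adjusted threshold in all, 20.4% of those tested, but 0.827% of the bright probes did. At an unadjusted limma p under 0.05, that fit called 4.7% of the bright probes. The difference by probe a was 0.0028 without βFbln5KO replicate 2 (adjusted p = 0.994 in limma). Without control replicate 3, which had the lowest value of its group on both probes, the difference by probe b was 0.16.

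Galr1 encodes a receptor for galanin, a neuropeptide that inhibits insulin secretion. By probe a, its log2 signal was 1.10, 1.13, 0.76 and 1.32 in control and 0.99, 1.10, 1.42 and 1.12 in βFbln5KO islets. Control replicate 3 was the lowest and βFbln5KO replicate 3 the highest of the 8 arrays, and the groups overlapped. The difference was 0.078 (SE 0.13, 95% confidence interval −0.22 to 0.37, adjusted p = 0.799 in limma). Probe b gave −1.33, −1.34, −1.79 and −1.28 on the control arrays and −1.66, −1.39, −1.11 and −1.62 on the βFbln5KO arrays, with a difference of −0.0081 (SE 0.16, adjusted p = 0.986 in limma).

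**Figure D3:**
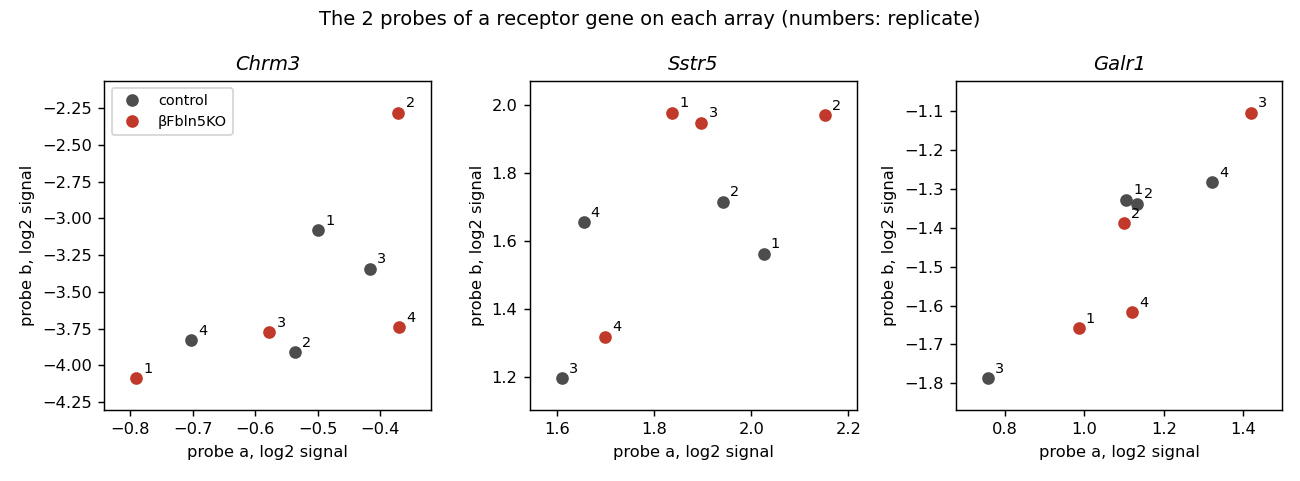
Log2 signals of the 2 probes of Chrm3, Sstr5 and Galr1 on each of the 8 arrays (probe a on the horizontal axis, probe b on the vertical axis; grey control, red βFbln5KO, numbers give the replicate). The probes of Galr1 order the arrays most alike, and control replicate 3 is lowest on both probes of Galr1 and of Sstr5.

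Where a gene has 2 probes, their signals were set beside each other. As a description over 8 arrays, the probes of Galr1 had a Pearson r of 0.896 and a Spearman rho of 0.881, those of Chrm3 had an r of 0.649 and a rho of 0.762, and those of Sstr5 had an r of 0.642 and a rho of 0.524. The probes of a pair share the labelled RNA, the hybridisation and the subtracted percentile of each array. After the group means were removed, the r was 0.92 for Galr1, 0.649 for Chrm3 and 0.616 for Sstr5, so that the arrays of one group differed from each other in much the same way on both probes of Galr1. The spread within groups also differed between the receptors. Adra2a had a residual SD of 0.0843 log2 units, lower than that of all but 16.1% of the bright probes. The residual SD of Sstr3 was 0.338, with 89.1% of those probes below it, and that of Ffar1 was 0.869, with 98.9% below it. The median over those probes was 0.15.

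Glp1r had the smallest p among the receptors, and the 3 genes whose signals followed it most closely were Carmil3, Bptf and Slc5a9. Over 8 arrays their Pearson r with Glp1r was 0.976, 0.973 and 0.968, and Spearman's rho was 0.976, 1 and 0.905. They were the highest among 18931 named probes, where some high values arise with 8 points, and are given as a description. Their own differences were −0.11, −0.21 and −0.16, and 0 of the 3 passed an adjusted p of 0.05 in limma.

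The signalling route behind the receptors held 0 calls at an adjusted limma p of 0.05 and 10 at an unadjusted one. The 10 lists of ligands, related receptors, G proteins and effectors hold 151 genes, all measured, of which 113 were bright. Of these 113, 1 had a higher and 4 had a lower signal at an unadjusted limma p of 0.05, which is 4.42%, against 4.09% of the 13650 bright genes (1.01% higher and 3.08% lower). The other 5 genes at that p were Adcy2, Adcy10, Galp, Galr2 and Tacr1. All 5 were dim on every array, so that no direction or fold is given for them. The paper lists Adcy10 among its most downregulated genes, and which of the gene's 2 probes that rests on is not stated. Over all 22911 genes, 19.5% passed that p, 16.8% with a higher and 2.68% with a lower reading.

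**Figure D4:**
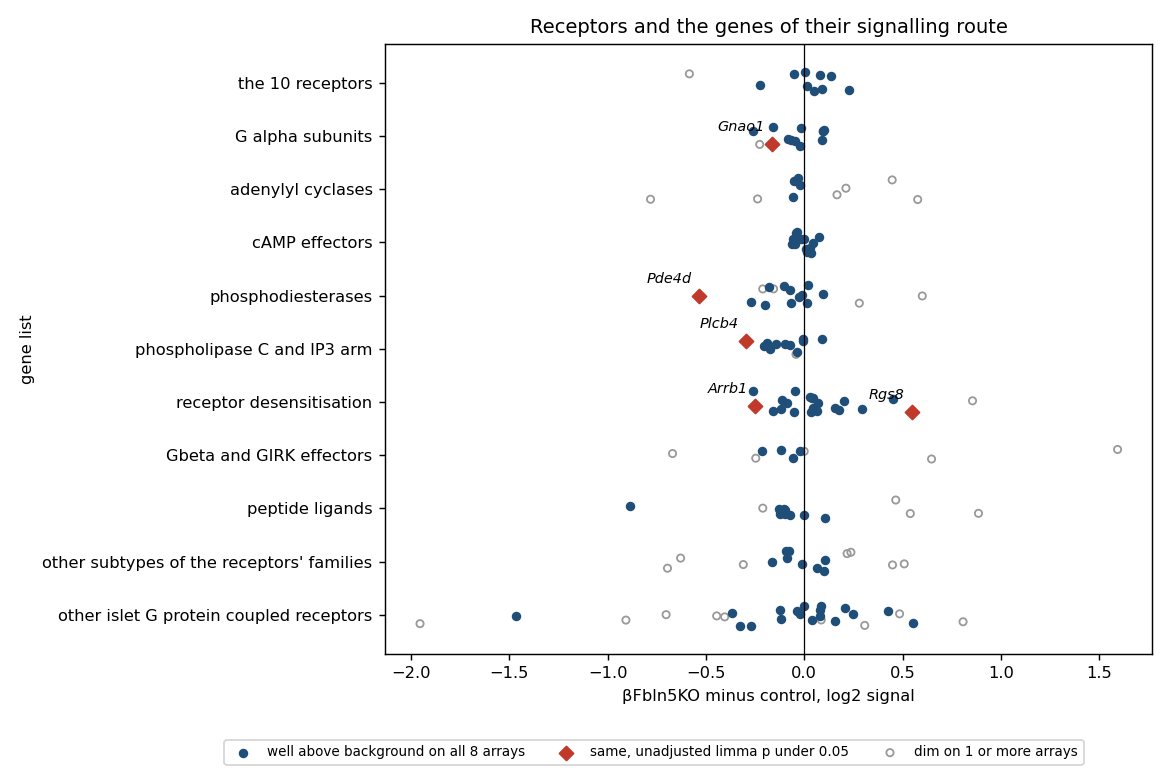
Differences of the 10 receptors and of the 151 genes of the signalling lists, 1 point per gene by its brightest probe (horizontal axis, βFbln5KO minus control in log2 signal; rows are the lists, with random vertical scatter). Filled points are well above background on all 8 arrays and mostly lie near 0. Those farther out include Cckar, a cholecystokinin receptor (−1.47, adjusted p = 0.38 in limma), Gal (−0.89) and Pde4d (−0.53) below 0. Above 0 they include Rgs8 (0.55) and Rgs2 (0.45). The 5 red diamonds, Gnao1, Pde4d, Plcb4, Arrb1 and Rgs8, are the ones at an unadjusted limma p under 0.05.

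Among the ligands, no bright peptide gene passed the test. Gcg encodes the precursor of glucagon and GLP-1, and its log2 signal spanned 7.70 to 7.92 over the control and 7.60 to 7.75 over the βFbln5KO arrays (difference −0.096, SE 0.095, adjusted p = 0.63 in limma). Pyy, which encodes peptide YY, had a difference of −0.096 (SE 0.15, adjusted p = 0.782 in limma). Sst, which encodes somatostatin, is given here although the rule did not name it, because it supplies the ligand of 2 of the receptors: it spanned 7.26 to 7.48 over the control and 7.19 to 7.36 over the βFbln5KO arrays, with a difference of −0.10 (SE 0.091, adjusted p = 0.581 in limma). Gal, the gene of galanin and also named after its values were seen, varied widely, at 0.66, 0.97, 3.34 and 2.40 in control and 1.08, 0.76, 0.15 and 1.83 in βFbln5KO islets. Its difference of −0.89 (SE 0.60, adjusted p = 0.436 in limma) was within that spread. The arrays with the highest Gal signals, control replicates 3 and 4 and βFbln5KO replicate 4, also had the highest summed acinar markers of the 8 (11.6, 11.3 and 10.9), and the part of acinar tissue in the Gal signal was not tested. In the list of 13 peptides, 9 were bright, and 0 of these reached an unadjusted limma p under 0.05.

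Among the other subtypes of the same receptor families, 8 of 15 were bright, and 0 of those were called. The 2 with the brightest probes were Ffar2, a receptor for short-chain fatty acids (difference −0.012, SE 0.20), and Sstr4, another somatostatin receptor (difference 0.064, SE 0.13). Of 27 further islet receptors, 18 were bright, and 0 of those were called. Vipr1, a receptor for VIP, had a difference of −0.037 (SE 0.098). Cckar, a receptor for cholecystokinin, gave −1.93, −2.23, 1.17 and 0.021 in control and −1.92, −3.42, −3.19 and −0.30 in βFbln5KO islets. The difference was −1.47 (SE 0.90, adjusted p = 0.38 in limma), and Cckar is named, after its values were seen, because it lay farthest from 0 among the bright genes of the lists. As for Gal, control replicates 3 and 4 and βFbln5KO replicate 4, the arrays with the highest summed acinar markers, had the highest Cckar signals, and the part of acinar tissue in them was not tested. P2ry1, a purinergic receptor for ADP, gave 2.55, 2.55, 3.60 and 2.56 in control and 2.86, 2.29, 3.30 and 2.97 in βFbln5KO islets (difference 0.037, SE 0.28).

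Among the G proteins, 12 of 13 Gα genes were bright, and of these Gnao1 alone had a lower signal at an unadjusted limma p of 0.05. Gnao1 encodes Gαo, through which Gi-coupled receptors inhibit secretion. Its log2 signal was 2.60, 2.71, 2.75 and 2.76 in control and 2.37, 2.60, 2.67 and 2.52 in βFbln5KO islets, with overlap. The difference was −0.16 (SE 0.071, unadjusted p = 0.0474, adjusted p = 0.195 in limma), and the other 2 probes of the gene gave −0.088 and −0.20 without passing. The call held only without control replicate 1 or βFbln5KO replicate 3 when 1 array was left out, with differences from −0.21 to −0.11. With all arrays it was lost under the filter on dim probes, the common floor, eBayes without trend, the deposited table and the methods' t-test. Of the 9 Gβ and potassium channel genes, 4 were bright, and 0 of those were called. Gnb2 had a difference of −0.12 (SE 0.071), and Gnb1 had one of −0.056 (SE 0.046).

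In the cyclic AMP arm, all 14 effector genes were bright and 0 were called, with a median difference of 0.0053. Prkacb, a catalytic subunit of protein kinase A, had a difference of −0.040 (SE 0.097), and Prkar1a, a regulatory subunit, one of −0.00057 (SE 0.071). Only 4 of 10 adenylyl cyclases were bright. Adcy9 (difference −0.024, SE 0.091) and Adcy6 (difference −0.054, SE 0.063) had the brightest probes. Pde4d encodes a phosphodiesterase that degrades cyclic AMP. It was measured at −2.71, −3.02, −2.97 and −2.66 in control and −3.46, −3.54, −3.17 and −3.33 in βFbln5KO islets, so that all βFbln5KO arrays lay below all control arrays. The difference was −0.53 (SE 0.16, 95% confidence interval −0.90 to −0.16, unadjusted p = 0.0101, adjusted p = 0.0756 in limma), and 2.81% of the bright genes also separated the groups. A second Pde4d probe that was also bright gave −0.0088 (SE 0.22), so that the bright probes of the gene differ in size. The other 3 Pde4d probes, dim on all βFbln5KO arrays or on all but 1, read −0.17, −0.63 and −0.28 without passing an unadjusted limma p of 0.05. By the first probe the unadjusted call held in all 18 alternatives. The difference shrank to −0.33 with normexp, and the adjusted p was 0.0498 in limma with eBayes without trend, a fit in which 0.537% of the bright probes passed. Under the filter on dim probes the adjusted limma p was 0.657, with quantile normalization 0.734 and with normexp 0.754. The list of 16 phosphodiesterases held no other call among the 12 that were bright.

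In the phospholipase C arm, 11 of 12 genes were bright, with a median difference of −0.096, and Plcb4 alone had a lower signal at an unadjusted limma p of 0.05. Plcb4 encodes phospholipase C β4, an effector of Gq. Its log2 signal was −0.44, −0.70, −0.63 and −0.82 in control and −0.89, −0.88, −0.93 and −1.05 in βFbln5KO islets, and the groups did not overlap. The difference was −0.30 (SE 0.090, unadjusted p = 0.00971, adjusted p = 0.0746 in limma). The other Plcb4 probe, well above background on 7 arrays, gave −0.78 (SE 0.22, unadjusted p = 0.00586, adjusted p = 0.0728 in limma). Whichever array was left out, the difference by the brighter probe stayed between −0.35 and −0.23, with an unadjusted limma p of 0.0274 or less. The adjusted limma p of that probe was 0.657 under the filter on dim probes, 0.734 with quantile normalization and 0.754 with normexp.

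Among 22 arrestins, receptor kinases and RGS proteins, which end receptor and G protein signals, 21 were bright. Arrb1, which encodes β-arrestin 1, gave −0.50, −0.70, −0.53 and −0.74 in control and −1.08, −0.84, −0.91 and −0.63 in βFbln5KO islets. Replicate 4 was the only βFbln5KO array within the control range, and the difference was −0.25 (SE 0.10, unadjusted p = 0.0408, adjusted p = 0.176 in limma). Without that array it was −0.33 and passed the adjusted threshold of limma (adjusted p = 0.0421), in the fit described for Sstr5 in which 0.827% of the bright probes did, and without control replicate 1 or 3 or βFbln5KO replicate 1, 2 or 3 it was not called. Among the alternatives with all arrays and no block, it was not called under the common floor, eBayes without trend or the methods' t-test. Rgs8, a GTPase-activating protein for Gα subunits, gave −2.81, −2.41, −3.02 and −2.31 in control and −1.75, −2.62, −2.01 and −1.98 in βFbln5KO islets. The difference was 0.55 (SE 0.23, unadjusted p = 0.0401, adjusted p = 0.174 in limma), with βFbln5KO replicate 2 inside the control range. Its call was lost without control replicate 1 or 3, or without βFbln5KO replicate 1, 3 or 4, and, among the alternatives with all arrays and no block, under the common floor and the methods' t-test. A second Rgs8 probe, above background on 1 array, read −0.29 (SE 0.66).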

How the data were processed

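Islet RNA of 4 control and 4 βFbln5KO extractions was hybridised to an 8-array Agilent slide. The authors deposited scanner output from Agilent Feature Extraction 11.0.1.1, whose processed signal is a background-subtracted, spatially detrended intensity without normalization between arrays. They also deposited a table of 35553 probes, in which each value is a ratio, the processed signal over 1 number per array (100% of single-spot values within 0.01%). It holds 10 of the 13 receptor probes, without Glp1r, Gpr119 and probe a of Chrm3.

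Processed signals of 59305 non-control spots were log2-transformed, and the 75th percentile of the array was subtracted (709 to 1055). Outlier-marked values (1689, none of a receptor) were left out, and spots of a probe were averaged. RefSeq accessions (GRCm38.p6) named 32994 probes. The methods name no test specific to the arrays. Groups were compared with limma 3.58.1 in R 4.3.3 (lmFit, eBayes with trend) over all 56605 probes, with Benjamini-Hochberg adjustment and a threshold of 0.05, and the procedure was tested on simulated data. Single sums were compared by exact permutation tests. The precision is limited by 4 arrays per group.

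The receptors, lists, markers and tests were chosen with earlier results of these data known. Lists are described by each gene's brightest probe. Named were all 10 receptors, list genes well above background on all 8 arrays at an unadjusted p under 0.05 (up to 4 per list) or otherwise the 2 brightest, and the 3 genes most like Glp1r. The marker lists were for β, α, δ, PP, acinar, ductal, endothelial, macrophage, mesenchymal and nerve cells. Alternatives were normexp (offset 50), quantile normalization, a percentile over detected probes, dropping probes detected on fewer than 4 arrays, 1 floor for dim signals, eBayes without trend, outliers kept, a replicate block, the deposited table, the methods' t-test, the mean of a gene's probes, and each array left out.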

Additional observations from a re-analysis of the deposited data

Results flagged for a closer look

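Of 66 sets of 4 arrays examined (the receptor probes, Fbln5, the list genes named by rule, Gal and Sst, within each genotype), 4 held 1 array far from the other 3 by Dixon's ratio of its gap to the group's range, where chance gives about 1 in 20. For probe b of Sstr5, βFbln5KO replicate 4 lay at 1.32 and the others between 1.95 and 1.98 (ratio 0.956). For probe b of Galr1, control replicate 3 lay at −1.79 and the others between −1.34 and −1.28 (ratio 0.891). Control replicate 3 was also apart for Gnb2, at 5.96 against 5.77 to 5.80 (ratio 0.857), and for P2ry1, at 3.60 against 2.55 to 2.56 (ratio 0.984).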

How the results depend on the processing

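No receptor probe passed an unadjusted p of 0.05 in any alternative that used all 8 arrays, and the smallest such p was 0.0699, with the replicate number as a block. With each array left out in turn, 0 to 1 probes passed the adjusted and 0 to 2 the unadjusted threshold: probe b of Sstr5 without βFbln5KO replicate 4, and Glp1r and Gpr119 (unadjusted alone) without βFbln5KO replicate 2. The methods' t-test called 0 receptor probes before and after adjustment. Of 170 differences of a receptor gene under an alternative, 157 kept their direction. The other 13 belong to genes with differences near 0. Part of the 157 was fixed in advance. Dropping dim probes, eBayes without trend, the replicate block and keeping outliers left every receptor difference unchanged. The common floor changed that of Ffar1 alone. Adra2a was −0.011 with normexp and, with 1 array left out, ranged from −0.047 to 0.041, Gcgr from −0.045 to 0.14, Galr1 from −0.029 to 0.16, Chrm3 from −0.043 to 0.10 and Gipr from −0.10 to 0.028. The cause was not tested. Over all probes the adjusted calls numbered 6, and 6578 with eBayes without trend, 87 with the methods' t-test and 11544 without βFbln5KO replicate 4. The deviations of arrays of the same number had an r of 0.20, 0.30, −0.22 and −0.022 for replicates 1 to 4, and 4 of 8 arrays matched their own number best, so not every pair deviated together and the numbers were not taken as pairs. The replicate block gave 0 receptor calls, and under it Arrb1 and Rgs8 lost their unadjusted calls. The interval extends past a 1.5-fold change for Ffar1, Sstr3 and the b probes of Chrm3 and Sstr5, and dim signals limit Ffar1 and probe b of Chrm3.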
